A study of Mus musculus with 5 samples.

Results

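The cells described here are 882 plasma cells of mouse spleen that carried B220 on their surface, expressed IgG and were not dividing, taken from 2 sorted libraries that differed in the uptake of 2NBDG. They are 882 of the 2348 cells in these 2 libraries and of the 5476 cells in the series. Members were chosen by their measured UMIs, the molecule counts of each gene in each cell. A member had at least 10 UMIs of the heavy-chain constant genes Ighm, Ighg1, Ighg2b, Ighg2c, Ighg3, Ighe and Igha, at least 70% of them from the 4 Ighg genes, and at most 2 UMIs summed over the cycling genes Mki67, Top2a, Birc5, Cdk1, Ccnb1, Ccnb2, Rrm2, Ube2c, Cdc20 and Aurka. The rule kept 550 of 1126 cells in the 2NBDG+ library and 332 of 1222 cells in the 2NBDG- library. Heavy-chain and cycling genes therefore describe the selection and are not results.

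All 5 libraries of the study came from untreated male C57Bl6/N mice of 8 to 12 weeks. Each library pooled sorted cells of 3 mice, and each gate has 1 library. The sort took CD138-high, Ly6g- and CD11c- cells. The groups compared are spleen B220+2NBDG+ and spleen B220+2NBDG-. Spleen B220-2NBDG+ and B220-2NBDG- supply a second contrast in other cells, and bone marrow B220-2NBDG+ completes the series. With 1 library a side there is no replicate check: no difference below was tested against the spread between mice, intervals cover counting error only, and mice, sort and library cannot be told apart from 2NBDG uptake.

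Plasma cells are the end stage of B cell differentiation and devote most of their RNA to immunoglobulin. B220, an isoform of the phosphatase CD45 encoded by Ptprc, is kept by recently formed plasma cells and lost by older ones, and IgG cells are those that have switched from IgM. 2NBDG is a fluorescent glucose analog that marks cells by how much of it they take up. Glucose in plasma cells feeds energy metabolism and the sugar chains attached to antibodies in the endoplasmic reticulum (ER).

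Summed over members, the 2NBDG+ cells held 2484570 UMIs of genes other than immunoglobulin and the 2NBDG- cells 1539208. Gene levels are given as CPM, the UMIs of a gene per 1000000 of these non-immunoglobulin UMIs. Both sets showed plasma cell transcripts: Sdc1, which encodes CD138, was at 549 against 481 CPM (2NBDG+ first, here and below), and the transcription factor Xbp1 at 5119.6 against 4906 CPM. Pax5, the defining factor of B cells before they become plasma cells, had 0 UMIs in both, which allows up to 1.21 and 1.95 CPM. The list of 8 B cell markers summed to 1428 against 1605 CPM, of which Ms4a1, encoding CD20, was at 151 against 242 CPM. T cell markers summed to 3.22 CPM (8 UMIs, 5 of 8 markers at 0) against 27.3 CPM (42 UMIs, 3 of 8 at 0). Macrophage or monocyte markers were at 42.7 against 40.3 CPM, and neutrophil markers had 1 and 0 UMIs. Their part in the results was not tested, beyond a recount without the 5 and 5 cells with at least 2 UMIs of such markers, which left 48 genes higher and 46 lower by the rule given below. No cell barcode was shared between the 2 sets of members.

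Close to the limits of the selection, 15 of the 2NBDG+ and 21 of the 2NBDG- members had exactly 2 cycling UMIs, while 4 and 8 IgG cells had exactly 3 and stayed out. In all, 14 of 564 IgG cells in the 2NBDG+ library and 91 of 423 in the 2NBDG- library were left out as cycling. Only 1 and 2 members had an IgG share between 70% and 75%, and 0 and 1 non-cycling cells lay between 65% and 70%. The lowest heavy-chain count of a member was 157 UMIs in the 2NBDG+ set and 11 in the 2NBDG- set.

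Light-chain RNA, which took no part in the selection, was higher in the 2NBDG+ IgG cells. Igkc, the kappa light-chain constant gene, gave 1.22 UMIs for each non-immunoglobulin UMI in 2NBDG+ cells and 0.714 in 2NBDG- cells, with medians of 5259 and 2839 UMIs per cell. The median of non-immunoglobulin UMIs was 4601 against 4401. As a description only, since it counts the heavy-chain UMIs of the selection, immunoglobulin made up a median of 66.5% of a cell's UMIs (quartiles 59.5% and 72.3%) in 2NBDG+ cells and 51.9% (quartiles 42.2% and 61.3%) in 2NBDG- cells, so the distributions overlapped. Jchain, which encodes the joining chain of IgM and IgA polymers and is also transcribed in IgG cells, took 14.8% of the non-immunoglobulin UMIs against 10.5%. In the splenic B220- libraries the order for Igkc was the opposite, with 0.916 UMIs in 2NBDG+ and 1.19 in 2NBDG- IgG cells.

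IgG2c was the leading subclass on both sides. It dominated (at least 70% of heavy-chain UMIs) in 54.7% of 2NBDG+ members (301 cells, 95% exact binomial interval 50.5% to 58.9%) and in 60.8% of 2NBDG- members (202 cells, 55.4% to 66.1%). IgG2b followed with 23.8% (20.3% to 27.6%) against 23.5% (19.0% to 28.4%), and IgG3 with 13.6% (10.9% to 16.8%) against 12.3% (9.01% to 16.4%). The intervals of these 3 subclasses overlapped between the libraries. IgG1 was the rarest subclass, at 5.64% (31 cells, 3.86% to 7.91%) against 2.41% (8 cells, 1.05% to 4.69%), with overlapping intervals too. Igkc per non-immunoglobulin UMI was 1.21 against 0.700 in IgG2c cells, 1.31 against 0.715 in IgG2b cells and 1.14 against 0.793 in IgG3 cells.

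**Figure D1:**
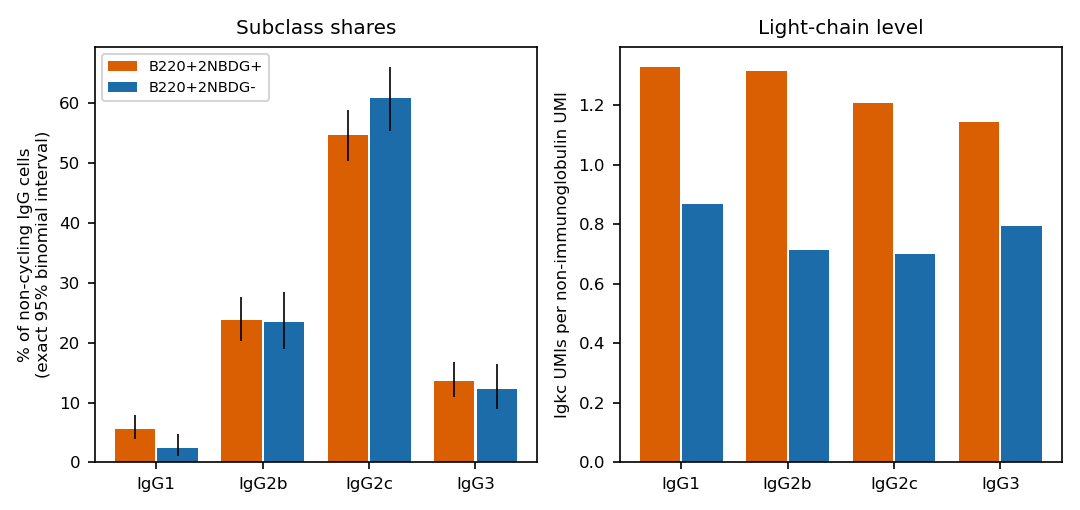
Left, share of non-cycling IgG cells of each B220+ spleen library dominated by each IgG subclass (bars, % of cells, with exact 95% binomial intervals). Right, UMIs of the light-chain gene Igkc for each non-immunoglobulin UMI, summed over the cells of each subclass (bars). Subclass intervals overlap, and the 2NBDG+ bars for Igkc are above the 2NBDG- bars in all 4 subclasses.

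Heavy-chain transcripts of other classes were more frequent in the 2NBDG+ library. Ighm supplied a median of 2.80% of the heavy-chain UMIs of 2NBDG+ members and 1.20% of those of 2NBDG- members. In the reverse check, Ighg genes made up a median of 6.13% of heavy-chain UMIs in IgM cells of the 2NBDG+ library and 0.761% in IgM cells of the 2NBDG- library. With a 90% threshold, single subclasses were called in far fewer 2NBDG+ cells (26.0% for IgG2c and 4.18% for IgG2b), while IgG2c kept 60.2% and IgG2b 21.7% in the 2NBDG- library. What part this admixture has in the gene results was not tested.

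A gene was tested where whichever library was higher reached 25 CPM and 50 UMIs. Of 3547 such genes, 46 were at least 2-fold higher in the 2NBDG+ IgG cells (1.30%) and 46 at least 2-fold lower (1.30%). The median log2 ratio of the genes tested was -0.02. Some of these calls fall on genes that set libraries apart irrespective of the gates. Over all their cells, 20 genes were at least 2-fold higher or at least 2-fold lower in both spleen B220+2NBDG- and spleen B220-2NBDG+ than in every remaining library, a division that cuts across both B220 and 2NBDG. Among them, Hist2h2aa1 was at 8.04 and 9.87 CPM in those 2 libraries and at 97.9 and 123 CPM in the other 2 of spleen. These genes made up 11 of the 46 higher and 7 of the 46 lower calls. Annotated pseudogenes, whose reads cannot be separated with certainty from those of their parent genes, made up 1 of the higher and 18 of the lower calls, beside 0.818% of the genes tested; some belong to both kinds. Without both kinds, 35 genes were higher and 25 lower, and only these are described below as 2-fold genes unless said otherwise.

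**Figure D2:**
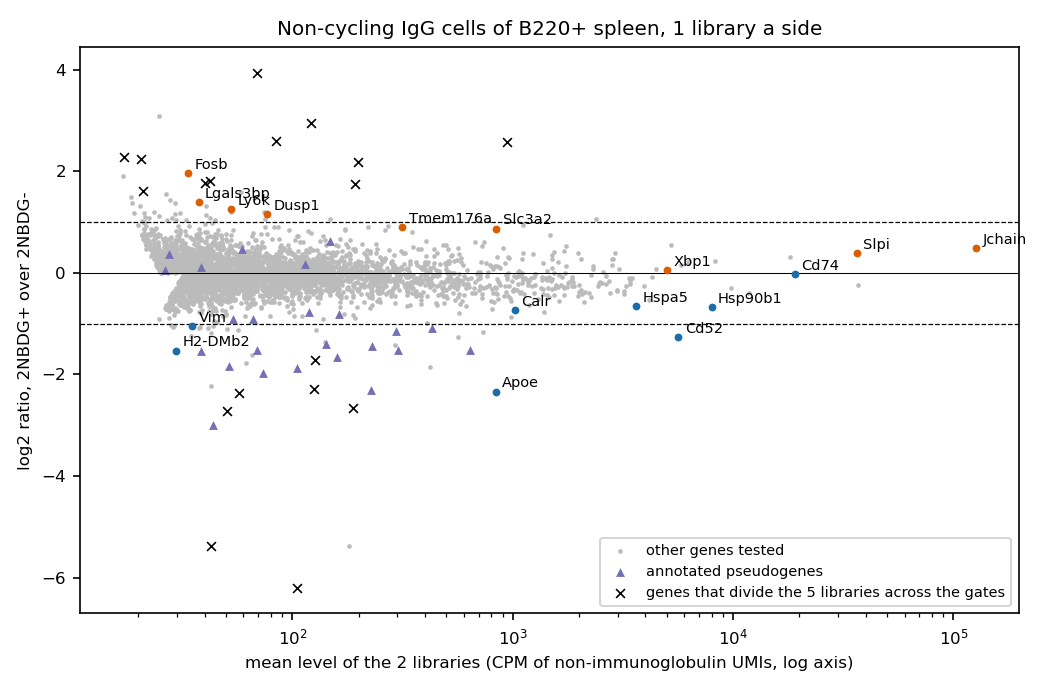
Log2 ratio of the 2NBDG+ over the 2NBDG- library for each gene tested in the non-cycling IgG cells, against its mean level (CPM of non-immunoglobulin UMIs, log axis). Dashed lines mark 2-fold; black crosses are genes that divide the 5 libraries across the gates and violet triangles are annotated pseudogenes, which make up much of the extreme values, while coloured points are genes named in the text.

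Apoe and Cd52, both well covered by UMIs, were more than 2-fold lower in 2NBDG+ IgG cells. Apoe (chr7:19696109-19699188, GRCm38), encoding the lipid carrier apolipoprotein E, was at 278 CPM (690 UMIs) in 2NBDG+ and 1404 CPM (2161 UMIs) in 2NBDG- cells, lower by 5.06-fold (95% interval 4.64 to 5.52). A single 2NBDG- cell held 363 of its UMIs, and without the highest cell of each library the log2 ratio was -2.26, beside -2.34 with it. Cd52 (chr4:134082448-134095082), a small glycosylphosphatidylinositol-anchored surface glycoprotein of lymphocytes, was at 3324 CPM (8259 UMIs) against 7986 CPM (12292 UMIs), lower by 2.40-fold (95% interval 2.34 to 2.47). Cd52 was lower in each of the larger subclasses, with log2 ratios of -1.36 in IgG2c, -1.47 in IgG2b and -0.49 in IgG3 cells. Both genes were also lower in the 2NBDG+ IgG cells of the B220- libraries, which share no library with this comparison: Cd52 stood there at 1547 against 3778 CPM, whereas Apoe rested on 3 against 8 UMIs.

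Some MHC class II genes were lower in 2NBDG+ IgG cells. MHC class II molecules present peptides to T cells and are lost as B cells become plasma cells. Of 10 measured class II genes (a mean of at least 10 CPM), 2 were at least 1.5-fold lower and 0 were 1.5-fold higher, with a list median log2 ratio of -0.43 beside -0.03 over all 5852 genes measured. At this threshold 7.07% of all genes measured were higher and 6.92% lower, and 3134 of the 5852 lay below 0. In IgG3 cells the class II median was 0.02 and H2-Aa had a log2 ratio of 0.03. Of 17 measured genes of MHC class I and peptide loading, 0 passed 1.5-fold either way and the median was -0.12, with summed levels of 29968 against 27177 CPM. H2-DMb2, a subunit of the chaperone that loads class II peptides, was at 15.3 CPM (38 UMIs) against 44.2 CPM (68 UMIs), lower by 2.89-fold (95% interval 1.91 to 4.42). The class II alpha chain H2-Aa was at 708 against 1012 CPM, a log2 ratio of -0.51 (-0.61 to -0.42), and the lysosomal thiol reductase Ifi30 at 33.4 against 56.5 CPM. The invariant chain Cd74 was level, at 18905 against 19145 CPM. H2-Aa was lower in both other sets of cells, with log2 ratios of -0.97 in IgM cells of the same libraries and -1.07 in B220- IgG cells.

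B cell genes other than Cd52 differed less. Of 18 measured B cell identity genes, 3 were at least 1.5-fold lower and 0 higher (median -0.16), beside 6.92% and 7.07% of all genes. The 3 were Cd52, Ms4a1 and Fcmr, the receptor for IgM, which was at 53.9 against 81.9 CPM. Ptprc itself, the gene of the B220 gate, was at 76.1 against 83.8 CPM, a log2 ratio of -0.14 whose interval of -0.47 to 0.19 includes 0. The chemokine receptor Cxcr3, a target of the factor T-bet, was at 169.8 against 190.4 CPM, and its interval (-0.38 to 0.06) includes 0 as well.

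Cytoskeletal genes formed another lower group. Of 25 measured genes of the actin, tubulin, annexin and vimentin set, 8 were at least 1.5-fold lower and 1 higher, and the median was -0.39. Over all genes measured, 6.92% were lower and 7.07% higher. Vim, encoding the intermediate filament vimentin, was at 22.9 CPM (57 UMIs) against 47.4 CPM (73 UMIs), lower by 2.07-fold (95% interval 1.44 to 2.98). The alpha tubulin gene Tuba1a was at 32.2 against 68.9 CPM, lower by 2.14-fold (95% interval 1.58 to 2.90), but the related Tuba1b had a log2 ratio of 0.39 in the opposite direction. Gamma actin, Actg1, was at 72.4 against 131 CPM, and the actin-sequestering Tmsb4x at 1030.4 against 1751 CPM. The exception was the actin-binding profilin Pfn1, with a log2 ratio of 0.61. Anxa2, a membrane-binding annexin, was at 8.05 against 20.8 CPM, on 20 against 32 UMIs, too few for the rule. Its log2 ratio of -1.37 became -0.77 without the highest cell of each library, because a single 2NBDG- cell held 13 UMIs. Vim was lower in IgM cells (-1.03) and in B220- IgG cells (-1.44, 7 against 11 UMIs) too.

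Some major ER chaperones were lower in 2NBDG+ IgG cells. These proteins fold antibody chains and are induced by the unfolded protein response. Of 36 measured genes of ER folding, 4 were at least 1.5-fold lower, 0 were higher and 27 lay below 0, with a median of -0.19, beside 6.92% of all genes 1.5-fold lower and 3134 of 5852 below 0. The 4 are major chaperones. Hspa5 (BiP), which holds unpaired heavy chains, was at 2829.9 CPM (7031 UMIs) against 4449.7 CPM (6849 UMIs), lower by 1.57-fold (95% interval 1.52 to 1.63). Hsp90b1 (GRP94) was at 6150.0 against 9838 CPM, lower by 1.60-fold (95% interval 1.56 to 1.64). Calr, the calcium-binding lectin calreticulin, was at 768 against 1281 CPM, lower by 1.67-fold (95% interval 1.56 to 1.78), and its partner, the disulfide isomerase Pdia3, at 933 against 1442 CPM, lower by 1.55-fold (95% interval 1.46 to 1.64). All 4 were lower in IgG2c, IgG2b and IgG3 cells taken apart, in which Hspa5 had log2 ratios of -0.63, -0.95 and -0.49. In B220- IgG cells Hspa5 had a log2 ratio of -0.25 and Hsp90b1 of -0.62. Xbp1, which drives many of these genes, had a log2 ratio of only 0.06, and Dnajb9 of 0.24.

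The ER stress response element is the DNA motif through which the factors ATF6 and NF-Y act on chaperone genes, and the promoters of 3 of these chaperones are shown because all 3 hold it. The letters searched were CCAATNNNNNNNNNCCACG, on both strands, in the 250 bases before each annotated start in RefSeq promoter windows (GRCm38.p6); the motif contains the CCAAT box. It was present in 37 of 32851 windows, a share of 0.113%. Of the 36 ER folding genes measured, 29 had a window by symbol and 9 of them held the motif: Hspa5, Hsp90b1, Calr, Canx, Pdia6, Dnajc3, Creld2, Syvn1 and Derl3. In the lines that follow, each promoter is written 5′ to 3′ on the strand of its gene, with matches in capitals. Hspa5 lies on the plus strand at chr2:34771840-34772089, Hsp90b1 on the minus strand at chr10:86705445-86705694 and Calr on the minus strand at chr8:84846932-84847181.
Hspa5: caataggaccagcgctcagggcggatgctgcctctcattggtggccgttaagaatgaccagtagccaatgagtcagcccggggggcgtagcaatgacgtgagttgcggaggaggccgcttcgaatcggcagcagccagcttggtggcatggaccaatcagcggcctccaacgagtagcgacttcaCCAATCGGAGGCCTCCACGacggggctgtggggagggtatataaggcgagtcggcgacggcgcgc
Hsp90b1: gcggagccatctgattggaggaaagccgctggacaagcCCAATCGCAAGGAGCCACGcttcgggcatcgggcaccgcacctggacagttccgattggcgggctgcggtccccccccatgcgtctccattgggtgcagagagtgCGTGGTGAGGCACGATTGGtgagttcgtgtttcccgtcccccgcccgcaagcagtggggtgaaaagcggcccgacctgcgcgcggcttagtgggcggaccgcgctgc
Calr: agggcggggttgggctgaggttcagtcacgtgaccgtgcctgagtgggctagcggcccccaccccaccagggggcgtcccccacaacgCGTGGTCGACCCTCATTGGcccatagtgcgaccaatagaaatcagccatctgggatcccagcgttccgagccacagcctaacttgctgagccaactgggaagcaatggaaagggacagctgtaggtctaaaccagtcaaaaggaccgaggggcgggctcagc
Hspa5 holds 1 match in the direction of the gene, Hsp90b1 holds 2 that point in opposite directions, and Calr holds 1 on the reverse strand. The motif was searched after these genes were seen to be lower, and Pdia3, lower as well, holds no match. Holders of the motif that stayed under 1.5-fold were Canx (log2 ratio -0.24), Pdia6 (-0.43), Dnajc3 (-0.07), Creld2 (-0.09), Syvn1 (-0.44) and Derl3 (-0.27). A link between the motif and these levels was not tested. A match describes these letters and says nothing on its own about binding.

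Other lists of protein synthesis and secretion held few genes past 1.5-fold. Of 80 ribosomal protein genes, 2 were at least 1.5-fold lower, under the 6.92% of all genes, while 77 lay below 0 (3134 of 5852 among all genes) and the median was -0.29. Of 37 genes of ER translocation and vesicle transport, 0 passed 1.5-fold in either direction, and the median was -0.24. The oligosaccharyltransferase subunit Rpn1, which attaches sugar chains, was at 475 against 746 CPM, a log2 ratio of -0.65, and the cargo receptor Lman1 at 646 against 948 CPM (-0.55). Ssr4, a subunit of the translocon-associated complex, ran the other way at 6234 against 4252 CPM (0.55), while Ssr1 and Ssr2 of the same complex had log2 ratios of -0.52 and -0.55. Mzb1, a plasma cell ER protein that assists antibody assembly, was at 10135 against 13390 CPM (-0.40).

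Immediate early genes, several of which encode transcription factors induced within minutes of a stimulus, were in part higher in 2NBDG+ IgG cells. Of 20 measured, 7 were at least 1.5-fold higher and 1 lower, beside 7.07% and 6.92% of all genes, with a median of 0.21. Fosb (chr7:19302696-19310051), a subunit of the AP-1 transcription factor, was at 53.5 CPM (133 UMIs) against 13.6 CPM (21 UMIs), higher by 3.92-fold (95% interval 2.46 to 6.55). No single cell held more than 3 of its UMIs, and its log2 ratio was 2.02, 1.76 and 1.88 in IgG2c, IgG2b and IgG3 cells. The MAP kinase phosphatase Dusp1 was at 106 CPM (263 UMIs) against 47.4 CPM (73 UMIs), higher by 2.23-fold (95% interval 1.72 to 2.93), although in IgG2b cells its log2 ratio was only 0.16. Ier2 stood at 224 against 123 CPM and Junb, another AP-1 subunit, at 223 against 124 CPM. Fos, Nfkbia and Klf6 completed the 7, with log2 ratios of 0.61, 0.64 and 0.59. The exception was Egr1, at -0.62. In B220- IgG cells the group was less even: Fosb had 11 against 4 UMIs (0.67), Junb a log2 ratio of 0.52 and Ier2 of -0.17. The mRNA-destabilising Zfp36l2 (55.9 against 25.3 CPM) and the kinase Sik1 (60.0 against 29.2 CPM) were among the other 2-fold genes.

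Amino acid supply showed a small group of higher genes. Of 23 measured genes of the integrated stress response and amino acid supply, 4 were at least 1.5-fold higher and 1 lower, with a median of 0.17. Over all genes measured, 7.07% were higher and 6.92% lower. Slc3a2, the heavy chain of the amino acid transporter CD98, was at 1090.3 CPM (2709 UMIs) against 596 CPM (917 UMIs), higher by 1.83-fold (95% interval 1.70 to 1.97). Its light chain Slc7a5 was at 71.6 against 53.3 CPM, with a log2 ratio of 0.43. Mthfd2 of mitochondrial folate metabolism was at 51.1 against 29.2 CPM, Psph of serine synthesis had a log2 ratio of 0.65, and the glutathione-degrading Chac1 was at 22.5 against 13.6 CPM. The stress factor Ddit3 was the member of the list that lay lower, at 12.5 against 20.1 CPM (31 UMIs in each). Slc3a2 was higher in IgM cells (0.70) and in B220- IgG cells (0.65).

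Several surface and secreted proteins were higher without forming a single pathway. Tmem176a and Tmem176b, neighbouring genes for membrane proteins of endosomal vesicles, were at 412 against 219.6 CPM and at 338 against 188 CPM. Tmem176a was higher by 1.88-fold (95% interval 1.66 to 2.13) here and had log2 ratios of 1.08 in IgM and 1.03 in B220- IgG cells. The secreted glycoprotein Lgals3bp, an interferon-induced gene, was at 54.3 CPM (135 UMIs) against 20.8 CPM (32 UMIs), higher by 2.61-fold (95% interval 1.77 to 3.97). Cst6, a secreted cysteine protease inhibitor, was at 39.8 against 13.6 CPM, higher by 2.92-fold (95% interval 1.81 to 4.93). In B220- IgG cells it was at 51.1 against 7.04 CPM, on only 25 against 2 UMIs. The polarity gene Crb3 was at 29.0 against 11.7 CPM. Ly6c2, a surface marker of plasma cells, was at 1471 against 765 CPM, higher by 1.92-fold (95% interval 1.80 to 2.05), and the secreted protease inhibitor Slpi at 41306 against 31640.3 CPM, higher by 1.31-fold (95% interval 1.29 to 1.32).

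**Figure D3:**
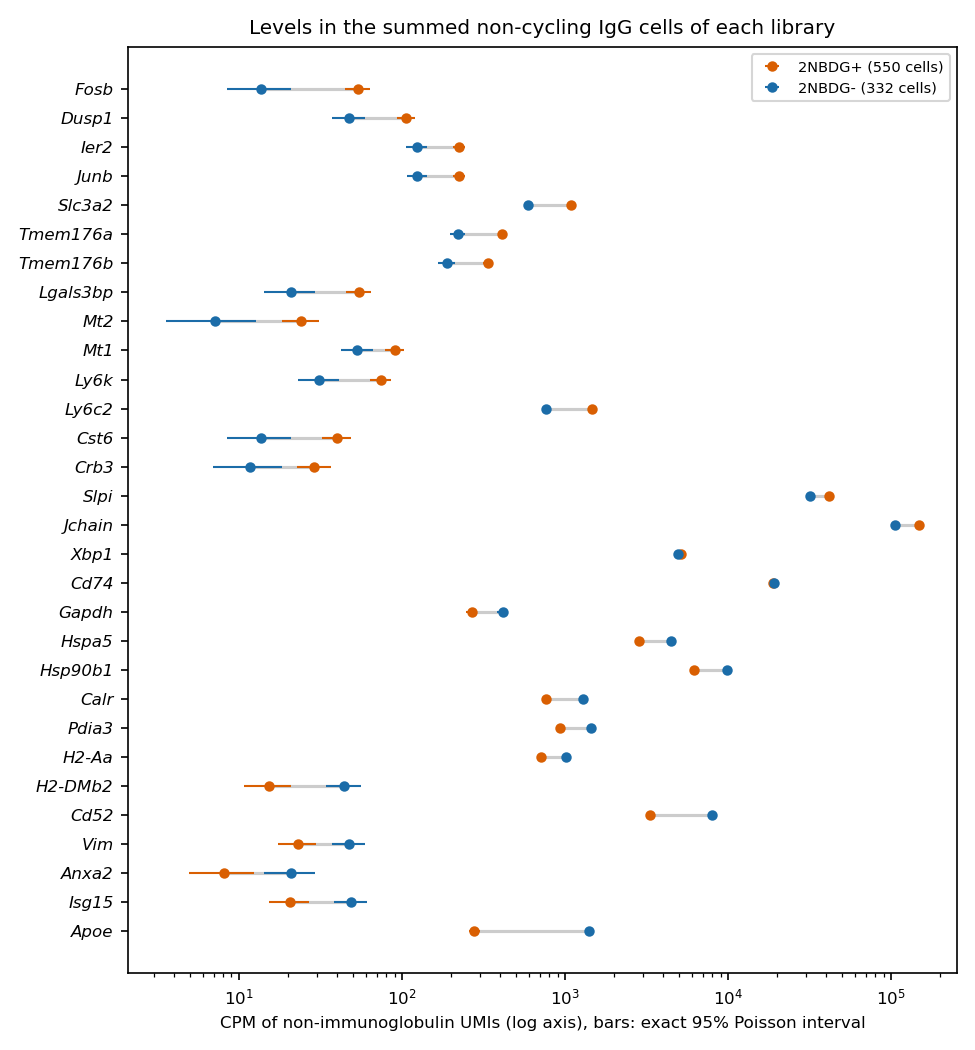
Level of selected genes in the summed non-cycling IgG cells of the 2NBDG+ library (orange, 550 cells) and the 2NBDG- library (blue, 332 cells), in CPM of non-immunoglobulin UMIs on a log axis, with exact 95% Poisson intervals. Fosb, Dusp1 and Lgals3bp lie higher and Apoe, Cd52 and H2-DMb2 lower in 2NBDG+ cells, while Xbp1 and Cd74 nearly coincide.

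Other 2-fold genes belonged to none of the lists. On the higher side, the nuclear import receptor Kpna2 was at 73.3 against 31.8 CPM and the zinc finger gene Zfp467 at 42.3 against 16.2 CPM. The mitochondrial carrier Slc25a53 was at 27.4 against 9.75 CPM and the peptidoglycan-binding Pglyrp1 had a log2 ratio of 1.38, on 67 against 16 UMIs. Tnfrsf18, the receptor GITR, was at 36.2 against 17.5 CPM. On the lower side, Lrrc58 was at 32.2 against 99.4 CPM, with log2 ratios of -1.67, -1.84 and -1.37 in IgG2c, IgG2b and IgG3 cells. The nucleosome-binding Hmgn2 was at 24.1 against 51.3 CPM, Tomm6 of the mitochondrial import complex at 26.6 against 56.5 CPM and the RNA polymerase III subunit Polr3c at 18.9 against 39.0 CPM. The highest single ratio left after the removal of pseudogenes and library-dividing genes was that of the histone gene Hist1h2ap, at 44.3 against 5.20 CPM, and the lowest that of the predicted gene Gm15013, at 8.45 against 351 CPM.

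Metallothioneins bind zinc and copper and respond to metals and glucocorticoids. Mt2 was at 24.1 CPM (60 UMIs) against 7.15 CPM (11 UMIs), higher by 3.38-fold (95% interval 1.76 to 7.13) but under the level the 2-fold rule asks for. Its log2 ratio was 2.03 in IgM cells and 1.70 in B220- IgG cells. Mt1 was at 90.6 against 53.3 CPM, but 1 cell held 70 of its 225 UMIs in the 2NBDG+ library. Without the highest cell of each library its log2 ratio was 0.44, beside 0.77 with it.

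Genes of glucose uptake and glycolysis were not higher as a group in the cells that had taken up more glucose analog. Of 26 listed genes, 16 were measured, with a median of -0.09. At 1.5-fold, 1 of them was higher and 3 lower, beside 7.07% and 6.92% of all genes. The glucose transporter gene Slc2a1 had 27 UMIs (10.9 CPM) against 21 UMIs (13.6 CPM), a log2 ratio of -0.33 with an interval of -1.21 to 0.57, and a difference was not detectable at this depth. Slc2a3, another glucose transporter, had 4 and 1 UMIs. The lower members were Hk2, Gapdh and Pkm. Hk2, the inducible hexokinase, was at 8.85 against 16.2 CPM, on 22 against 25 UMIs. Its log2 interval of -1.77 to 0.01 includes 0. Gapdh was at 268 against 416 CPM and the pyruvate kinase Pkm at 304 against 464 CPM. Gapdh was lower by 1.55-fold (95% interval 1.39 to 1.73). Aldoc, an aldolase, was the higher member, at 14.9 against 9.75 CPM (37 against 15 UMIs). Its log2 interval of -0.29 to 1.58 includes 0. Over all cells of the same 2 libraries, cycling cells included, the median of the list was -0.48, against -0.09 in the non-cycling IgG cells. Cycling genes outside the selection still differed among the members. Of 7 measured, 3 were at least 1.5-fold lower and 0 higher, beside 6.92% and 7.07% of all genes, with a median of -0.14. The 3 were Stmn1 at 8.85 against 18.8 CPM, the replication helicase subunit Mcm6 at 31.0 against 60.4 CPM and the thymidylate synthase Tyms at 8.85 against 15.6 CPM. Over all cells of the libraries the same 7 genes had a median of -1.73. The part of remaining cycling cells in the other results was not tested.

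Listed genes of respiration differed little. Of 48 listed nuclear genes of oxidative phosphorylation, 0 passed 1.5-fold, 38 lay below 0 and the median was -0.12. Outside this list, the ATP synthase subunit genes Atp5g2 and Atp5l had log2 ratios of 2.59 and 1.75. Both are among the genes that divide the libraries across the gates. In the citric acid cycle, 19 of 23 genes lay below 0 with a median of -0.15, and 0 passed 1.5-fold. Among all genes measured, 3134 of 5852 lay below 0 and the median was -0.03. All 11 measured genes of the mitochondrially encoded list lay above 0, with a median of 0.16. That median was -0.34 when scaled to all UMIs and -0.05 in IgM cells of the same libraries. The mitochondrial gene mt-Atp8, outside this list, had a log2 ratio of 2.19 and is among the genes that divide the libraries across the gates. Of the 11, mt-Nd4l, a complex I subunit, passed 1.5-fold at 199.6 against 95.5 CPM. Another subunit, mt-Nd1, was at 3296 against 2516 CPM (0.39) and the ATP synthase subunit mt-Atp6 at 8979 against 7650.0 CPM (0.23). The mitochondrial share of non-immunoglobulin UMIs, often read as a sign of RNA quality, was 3.19% in 2NBDG+ and 2.79% in 2NBDG- cells. Of 20 measured sterol and lipid synthesis genes, 7 were at least 1.5-fold lower and 1 higher, beside 6.92% and 7.07% of all genes. Below 0 lay 14 of the 20, and the median was -0.26. Hmgcs1, which commits acetyl units to cholesterol, was at 6.84 against 14.9 CPM, and its regulator Srebf2 at 13.7 against 27.3 CPM.

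Interferon-induced genes were split. Of 26 measured, 4 were at least 1.5-fold higher and 2 were lower, beside 7.07% and 6.92% of all genes, with a median of -0.05. The ubiquitin-like Isg15 was at 20.5 CPM (51 UMIs) against 48.7 CPM (75 UMIs), lower by 2.37-fold (95% interval 1.64 to 3.46). A single 2NBDG- cell held 21 of the 75 UMIs and a single 2NBDG+ cell 10 of the 51. The lower level of Isg15 rested on IgG2c cells, with a log2 ratio of -1.65, whereas IgG2b cells gave 0.06 and IgG3 cells 0.66. The guanylate-binding Gbp2 went the other way at 39.4 against 20.8 CPM.

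Identity genes of plasma cells differed little. Of 26 measured, 2 were at least 1.5-fold higher (Ly6c2 and Ly6k) and 1 was lower, beside 7.07% and 6.92% of all genes. The median was 0.08. Prdm1 and Irf4, the factors that install and maintain the plasma cell program, were at 33.8 against 32.5 CPM and at 96.2 against 90.3 CPM. Tnfrsf17, the survival receptor BCMA, was at 78.5 against 63.0 CPM, with a log2 ratio of 0.32 (-0.04 to 0.68). The lower member was Pou2af1, a coactivator of immunoglobulin transcription, at 179.9 against 277 CPM.

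**Figure D4:**
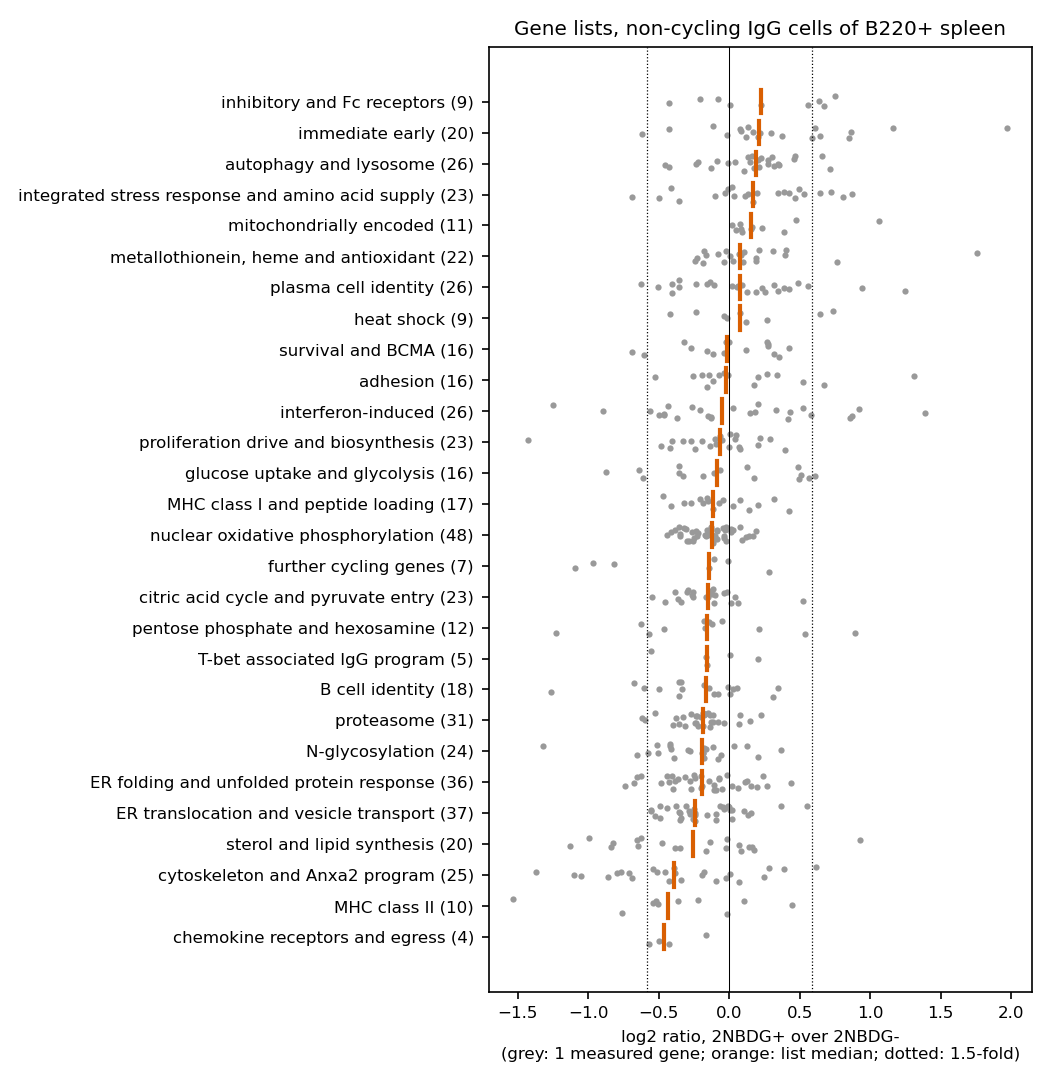
Log2 ratio of the 2NBDG+ over the 2NBDG- library in non-cycling IgG cells for each measured gene of 28 lists (grey points, the number measured in parentheses), with list medians (orange bars) and 1.5-fold limits (dotted lines). Medians run from -0.46 (chemokine receptors and egress, 4 genes) to 0.23 (inhibitory and Fc receptors, 9 genes), and most points lie within 1.5-fold.

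These ratios are relative to non-immunoglobulin RNA, and the higher immunoglobulin content of 2NBDG+ cells makes that choice matter. Scaled to all UMIs instead, the median log2 ratio moved by -0.50, and the lists with medians above 0 turned below it, for example to -0.29 for the immediate early genes, -0.34 for the mitochondrially encoded genes and -0.33 for amino acid supply. On that scale the 2-fold rule found 16 higher and 242 lower genes, in place of 46 and 46. Jchain supplied a larger part of the 2NBDG+ UMIs, and leaving it out of the total moved the median by 0.07, with 52 genes higher and 41 lower.

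The same contrast could be read in IgM cells of these libraries. They are other cells, 436 in the 2NBDG+ and 605 in the 2NBDG- library, but share library preparation and sort, so like values there are no independent support. Of 3843 genes tested in them, 40 were called higher (1.04%) and 64 lower (1.67%). Over all cells of the 2 libraries, 46 of 3982 genes were higher (1.16%) and 179 lower (4.50%). Fosb, Cd52 and Apoe had log2 ratios of 1.84, -1.48 and -2.79 in IgM cells, beside 1.97, -1.26 and -2.34 in IgG cells. Some genes differed between the classes. Ly6k, a surface protein of the Ly6 family, was at 74.1 CPM (184 UMIs) against 31.2 CPM (48 UMIs) in IgG cells, a log2 ratio of 1.25 (0.78 to 1.74), but at 68.2 against 81.3 CPM in IgM cells, a log2 ratio of -0.25 (-0.57 to 0.06). Within IgG, Ly6k had log2 ratios of 0.70 in IgG2c, 0.53 in IgG2b and 2.62 in IgG3 cells, the last on 35 against 2 UMIs. A single 2NBDG+ IgG cell held 25 of its 184 UMIs. In B220- IgG cells Ly6k was level, at 409 against 412 CPM. The guanine exchange factor Rasgrp3 was lower in IgG cells (28.6 against 59.1 CPM) and level in IgM cells (36.4 against 36.1 CPM). E330020D12Rik, an uncharacterised transcript, had log2 ratios of 1.92 in IgG and -0.96 in IgM cells. The opposite case was Slpi, with a log2 ratio of 1.01 in IgM and 0.38 in IgG cells. Il4i1, a secreted amino acid oxidase, had 3 and 3 UMIs in IgG cells, at the floor of 3 UMIs, so no fold is given, while IgM cells held 3 against 179. The difference between the classes was not tested, since each rests on the same single pair of libraries.

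The B220- spleen libraries gave the contrast in 116 2NBDG+ and 70 2NBDG- IgG cells with no library in common. Only 980 genes reached the level for testing there, of which the rule called 21 higher (2.14%) and 24 lower (2.45%). Of the 35 genes higher in B220+ IgG cells, 17 had the same direction, 0 were called in it there and 1 (Gm10076, a long intergenic RNA at 3228 against 1555 CPM here) was called in the opposite one. Of the 25 lower genes, 16 had the same direction, 2 (Cd52 and Rpl10-ps3, annotated as protein-coding) were called in it and 3 (Rpl24, Rnaset2a and Rnaset2b) were called in the opposite one. For comparison, 2003 of the 3505 genes tested, less pseudogenes and library-dividing genes, had the same direction. The genes with one direction in all 3 sets included Fosb, Lgals3bp, Cst6, Dusp1 and Crb3 above 0 and Apoe, Cd52 and Vim below 0. In B220- IgG cells the intervals of Fosb (-1.08 to 2.78), Dusp1 (-0.42 to 1.25) and Crb3 (-0.69 to 2.35) include 0. Those of Lgals3bp, Cst6, Apoe and Cd52 do not, although Apoe has only 3 against 8 UMIs there and Cst6 25 against 2. Some other genes had the opposite sign in B220- IgG cells, there on few UMIs. The lysosome-related Bloc1s1 had log2 ratios of 1.59 in B220+ IgG, 1.57 in IgM and -0.84 in B220- IgG cells. Its B220- value rested on 25 against 26 UMIs, with an interval of -1.69 to 0.01 that includes 0. The iron-sulfur assembly gene Isca1 had 1.31, 1.06 and -1.17 (13 against 17 UMIs) in the same order. The histone gene Hist1h2ap, with near-identical copies, had 3.09, 3.39 and -2.49 (4 against 13 UMIs). The genes that divide the libraries across the gates have this pattern by construction, and Hist1h2ap and Bloc1s1 were not among them.

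**Figure D5:**
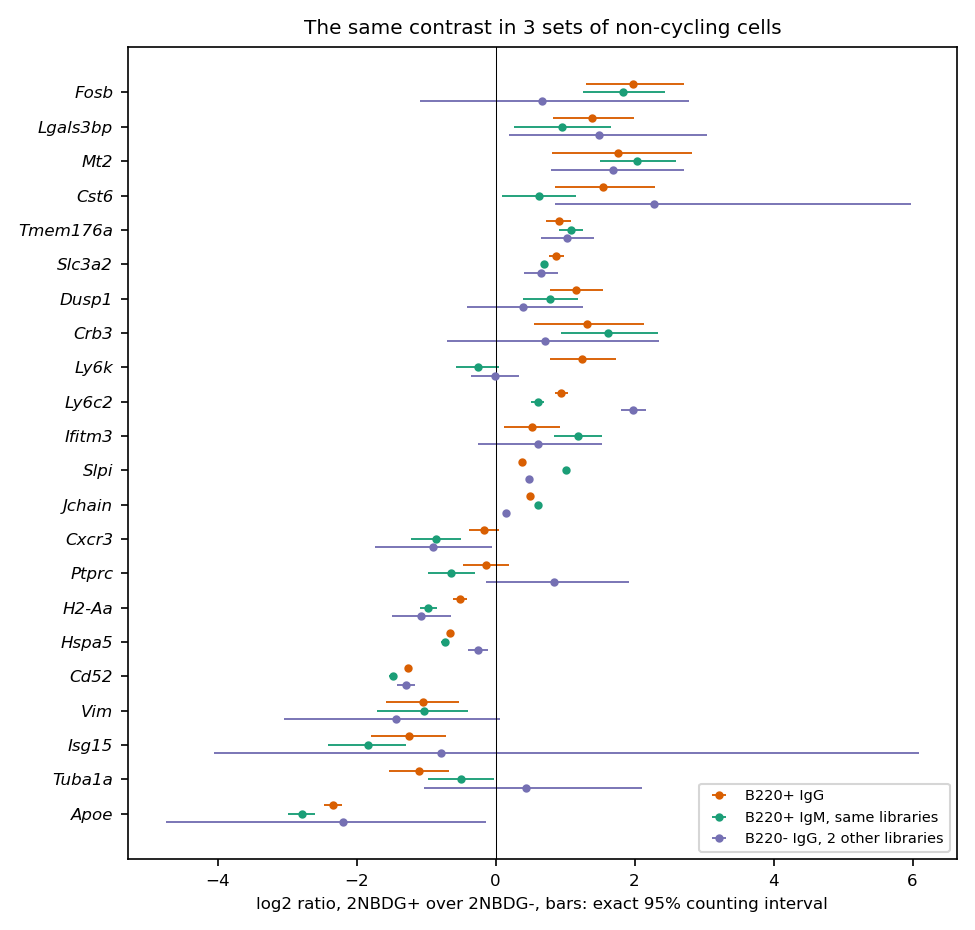
Log2 ratio of 2NBDG+ over 2NBDG- with exact 95% counting intervals for selected genes in B220+ IgG cells (orange), B220+ IgM cells of the same libraries (green) and B220- IgG cells of 2 other spleen libraries (violet). Tmem176a, Slc3a2 and Ly6c2 lie above 0 and Cd52, H2-Aa and Apoe below 0 in all 3 sets, while Ly6k lies above 0 with its whole interval only in B220+ IgG cells.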

How the data were processed

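Single-cell RNA was measured in 5 sorted plasma cell libraries with the 10x Genomics Chromium 3' kit v2, per the labels' protocols. The deposited tables hold raw UMI counts per gene and cell, not normalized. Cell Ranger 2.1 and the build GRCm38 are named in the submitters' processing notes. Of 33456 genes, 32739 matched GENCODE M21 by identifier, which gave symbols and positions. The 266 immunoglobulin genes were left out of totals and tests.

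Counts of member cells were summed within each library and divided by the summed non-immunoglobulin UMIs (Python 3.11.15, numpy 2.4.6, scipy 1.17.1, pandas 2.3.3; edgeR 4.0.16 for the TMM factors only). Ratios used a floor of 3 UMIs. Calls asked for a 2-fold ratio and, in whichever library was higher, 25 CPM and 50 UMIs; list members needed a mean of 10 CPM and were counted at 1.5-fold. Intervals are exact 95% Poisson, binomial or conditional binomial intervals and cover counting error only; with 1 library a side no p-value is given. Doublets were predicted with Scrublet in scanpy 1.11.5 (9 and 1 members) and kept, with a recount without them. Sums and intervals were tested on simulated data.

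Genes named were the 12 with the largest ratio each way outside library-dividing genes, up to 4 of each list with the largest absolute ratio, a fixed set, those differing most from IgM cells and those also called in B220- IgG cells. Calr, Hsp90b1, Hspa5, Pdia3, Cd52, Gm10076, the other 2-fold genes and list members outside these ranks were named after their values were seen. The members and the gene lists were chosen with earlier results of these data known. Some genes are not reported here.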

Additional observations from a re-analysis of the deposited data

Results flagged for a closer look

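Of the 46 lower and 46 higher calls, 10 and 6 were called in the opposite direction in B220- IgG cells, library-dividing genes and pseudogenes included. Among genes chosen for naming outside the library-dividing ones, 5 were lower here and higher in 2NBDG+ B220- IgG cells, each by at least 2-fold. The difference between the 2 contrasts was not tested. Rnaset2a, a lysosomal ribonuclease gene, had log2 ratios of -1.06 and 3.48, and its near-identical copy Rnaset2b of -1.12 and 2.63; reads of the 2 copies cannot be separated with certainty. The ribosomal protein gene Rpl24 had -1.17 and 1.05. The pseudogenes Gm10263 and Rps26-ps1 had -1.97 and 3.36, and -1.88 and 1.54. The reverse order was seen for 1 such gene, the long intergenic RNA Gm10076, with log2 ratios of 1.05 and -2.53. In the first 5 genes the B220+2NBDG- and B220-2NBDG+ libraries were the higher ones of their pairs and for Gm10076 the lower ones. This layout follows from choosing genes with opposite ratios in the 2 contrasts. The genes that divide the libraries across the gates have the same layout, but none of the 6 met their rule in all cells.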

How the results depend on the processing

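Among 2977 values of 187 named genes under alternatives, 2658 stayed within the counting interval of the main value and 318 fell outside it. In 1 value a gene called at 2-fold changed sign: Isg15, at 0.057 when only IgG2b cells were used. Outside this count, 43 of the 46 higher and 44 of the 46 lower calls kept their direction in IgG3 cells. There Isg15 had a log2 ratio of 0.66 (9 against 0 UMIs) and Pglyrp1 of -0.92 (5 against 5 UMIs). Of 464 list medians, 435 moved by less than the counting error, and 25 of the 29 others came from scaling to all UMIs. The counts of 46 higher and 46 lower genes became 16 and 242 per all UMIs, 233 and 110 with 20 UMIs and no CPM filter, 22 and 23 in IgG2b cells only, and 17 and 23 with each cell thinned to 1000 UMIs. A limit of 50 CPM and 100 UMIs left 22 higher genes. Leaving out pseudogenes and library-dividing genes, an alternative chosen after seeing the data, left 25 lower genes. A 90% threshold gave subclass shares in 2NBDG+ cells of 2.55% for IgG1, 4.18% for IgG2b, 26.0% for IgG2c and 5.82% for IgG3. The cause of these changes was not tested. No paired analysis was possible because each group had 1 library. Depth limits genes under about 50 UMIs, and no alternative replaces replicate libraries.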

Other observations

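Of 26 measured autophagy and lysosome genes, 2 were at least 1.5-fold higher and 0 lower, near the 7.07% of all genes that were higher. Above 0 lay 19 of the 26, beside 2718 of 5852 among all genes, and the median log2 ratio of 0.19 was -0.31 when scaled to all UMIs and -0.07 in IgM cells. Map1lc3a, a ubiquitin-like protein of the autophagosome, was at 172 against 109 CPM, the growth factor precursor progranulin Grn at 592 against 427 CPM and the membrane protein Lamp1 at 112 against 81.2 CPM. The protease Ctsl had a log2 ratio of 0.71, on 45 against 17 UMIs. Scarb2, a lysosomal membrane receptor outside the list, was at 39.8 against 19.5 CPM.

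Receptors of the SLAM and inhibitory groups were in part higher, 3 of 9 measured at 1.5-fold and 0 lower. Over all genes measured, 7.07% were higher. The 3 were Slamf6 (45.9 against 27.3 CPM), the inhibitory ligand Cd274 (PD-L1, 34.2 against 21.4 CPM) and Fcrl1 (37.4 against 24.0 CPM). The list median was 0.23, beside -0.24 in IgM and -0.52 in B220- IgG cells. Slamf7 stayed under 1.5-fold at 573 against 389 CPM, and Slamf9, outside the list, was at 38.6 against 18.2 CPM. In B220- IgG cells Slamf6 and Slamf7 had log2 ratios of -1.27 (5 against 7 UMIs) and -0.52, and Slamf9 of 0.74. The adhesion molecules Epcam and Itgal were at 203 against 127 CPM and at 81.3 against 56.5 CPM. Of 31 proteasome genes, 2 were at least 1.5-fold lower, near the 6.92% of all genes, and 27 lay below 0, beside 3134 of 5852 among all genes, with a median of -0.19. Of the 2, Psmd1 was at 50.7 against 78.0 CPM. The heat shock gene Hspa1a was at 131 against 78.6 CPM, and had a log2 ratio of 3.50 in B220- IgG cells on 78 against 4 UMIs.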
